A study of Mus musculus with 10 samples.

Results

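The core cardiac transcription factors were followed in embryonic mouse hearts with and without *Nos1ap*, the gene of an adaptor protein of neuronal nitric oxide synthase. They are 10 of the 23195 genes in the table: *Nkx2-5*, *Gata4*, *Gata5*, *Gata6*, *Hand1*, *Hand2*, *Mef2a*, *Mef2c*, *Mef2d* and *Irx4*, chosen by name, and all 10 were present. PolyA RNA of whole hearts at embryonic day 13.5 was sequenced from 5 wild-type and 5 *Nos1ap* null males, both of strain C57BL6/J. The null animals carried the constitutive tm1d allele on both chromosomes, in which an exon is deleted in every tissue rather than in heart muscle alone. The table gives 1 mean of normalized read counts per gene and genotype, and the counts of single libraries were worked back from the digits of these means where 1 set of whole numbers stood out. For the members solved in this way, the number of other sets expected as near by chance was 0.000158 for *Gata5*, 0.00132 for *Hand1* and 0.00544 for *Irx4*.

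These factors work as a network. NKX2-5 is a homeodomain protein, the GATA factors bind DNA with zinc fingers, the HAND factors are basic helix-loop-helix proteins that pair with E-proteins, the MEF2 factors share a MADS domain, and IRX4 is an Iroquois homeodomain protein of ventricular muscle. They bind enhancers of heart genes together and regulate one another. Loss of several of them, though not of all, disturbs looping of the heart tube, growth of the chambers or formation of the outflow tract in mice. *Nkx2-5*, *Gata4* and *Mef2c* are switched on in early cardiac progenitors, and *Hand1* and *Hand2* are known for left and right ventricular territories.

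The genes lie apart from each other in the mouse genome. On GRCm38, with the gene models of GENCODE M21, *Nkx2-5* spans chr17:26838664-26845009, *Gata4* chr14:63198922-63271692, *Gata5* chr2:180325133-180334699 and *Hand1* chr11:57828705-57832818, each on the minus strand. *Mef2a* spans chr7:67231163-67372858 on the same strand. Of the members on the plus strand, *Hand2* lies at chr8:57320983-57324633, *Mef2c* at chr13:83504034-83667080, *Mef2d* at chr3:88142372-88172086 and *Irx4* at chr13:73260479-73269608. *Hand2*, *Gata5* and *Gata6* are each crossed at their start by a gene on the opposite strand, *Hand2os1*, *Gata5os* and *1010001N08Rik*. Libraries and counting used strand, so the reads of such pairs are assigned apart.

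Promoter windows from RefSeq on GRCm38.p6 were at hand for 7 members. The 250 bases before the start of *Hand2* (chr8:57320733-57320982, plus strand) and of *Gata5* (chr2:180334680-180334929, minus strand) are shown because an opposite gene crosses these starts. Capitals mark CATCTG, letters bound by HAND and E-protein pairs, and GATAA, letters bound by GATA factors, on either strand (GATAA reads TTATC on the other).
Hand2: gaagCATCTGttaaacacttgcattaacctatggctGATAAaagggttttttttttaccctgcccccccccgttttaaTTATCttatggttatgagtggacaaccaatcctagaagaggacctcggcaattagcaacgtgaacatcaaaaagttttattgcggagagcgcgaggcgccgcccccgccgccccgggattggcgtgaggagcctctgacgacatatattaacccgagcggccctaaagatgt
Gata5: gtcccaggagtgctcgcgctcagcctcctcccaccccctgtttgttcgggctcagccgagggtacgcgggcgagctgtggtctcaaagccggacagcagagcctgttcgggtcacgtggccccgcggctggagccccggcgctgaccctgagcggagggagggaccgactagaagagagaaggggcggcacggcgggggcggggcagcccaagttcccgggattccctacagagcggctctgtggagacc
The *Hand2* window held CATCTG at 246 bases before the start and GATAA at 214 and 172 bases before it. The *Gata5* window held none of the motifs searched, and it is richer in G and C (70.0% against 49.2% for *Hand2*). Of the 9 windows of members (*Mef2c* has 3), 2 held GATAA and 2 held CATCTG, in each case a window of *Hand2* and a window of *Mef2c*. Of all 32851 windows, 22.6% held GATAA and 14.4% CATCTG. No member window held TNAAGTG, letters bound by NKX2-5, or TATTTNTA, letters of the MEF2 core, which 10.1% and 5.44% of all windows held. The marked matches do not overlap. Such matches describe letters in a short window and say nothing of binding.

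The libraries held an estimated 11328000 to 14023000 counted read pairs. The columns of means do not name the genotypes. They were assigned with the help of *Nos1ap*, which the authors reported as lower in null hearts, so its fall is no independent check. Its normalized counts were 147, 133, 126, 161 and 153 in wild-type libraries 1 to 5. In null libraries 1 to 5 they were 42.3, 42.2, 44.4, 31.1 and 39.2. The groups did not overlap, and the log2 fold change was -1.83 ± 0.121 (SE, n = 5 and 5; limma adjusted p = 7.19e-09). Heart muscle markers were high in both genotypes, *Tnnt2* with group means of 37532 and 37652 (wild type and null, the authors' means of normalized counts). Wild-type library 3 stood apart in markers of several other cell types. The summed normalized count of 3 neuronal and glial markers (*Stmn2*, *Sox10* and *Th*) was 729 there and between 32.7 and 54.9 in the other 9 libraries. The sum of *Sox2*, *Foxa2* and *Cldn6*, from a list of lung and gut endoderm markers, was 38.7 there and at most 9.31 elsewhere. *Sox2* made up most of it (25.4), and *Nkx2-1* and *Sftpc* of that list were absent from the table. The sum of 4 skeletal muscle markers was 33.6 there and at most 12.9 elsewhere. *Myh11*, of smooth muscle, had 206 and at most 69.1. The other smooth muscle markers, *Acta2*, *Tagln* and *Cnn1*, had no counts per library, and their log2 ratios of means lay between -0.07 and -0.0011. *Klf1*, of red blood cells, ran from 10.3 to 29.6 in wild-type libraries, and its null values lay between 11.1 and 92.5, the highest in library 2. In whole hearts, fewer cells of a type and less RNA per cell cannot be told apart. The sources do not say whether embryos shared litters, and p-values measure the spread between these libraries.

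Across the network the genotypes lay close together. By the ratio of group means, 6 of the 10 factors were higher in null hearts and 4 lower, against 49.5% of 13299 protein-coding genes that were higher, and the median log2 ratio of the factors was 0.02. Only *Hand1* of the 10 differed by over 0.1 on the log2 scale, against 24.0% of all these genes, and 5 of 10 differed by over 0.05, against 49.0%. The median absolute log2 ratio was 0.0504 for the factors and 0.0489 for all genes. Counts of single libraries, and with them a test, were obtained for 3 members, *Gata5*, *Hand1* and *Irx4*. None of the 3 was called at an FDR of 1% with an absolute log2 fold change over 1, nor at an FDR of 5% or an unadjusted p under 0.05 (limma). Of the 10295 protein-coding genes tested, 0.0291% were called by the first rule and 3.53% had an unadjusted p under 0.05.

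**Figure D1:**
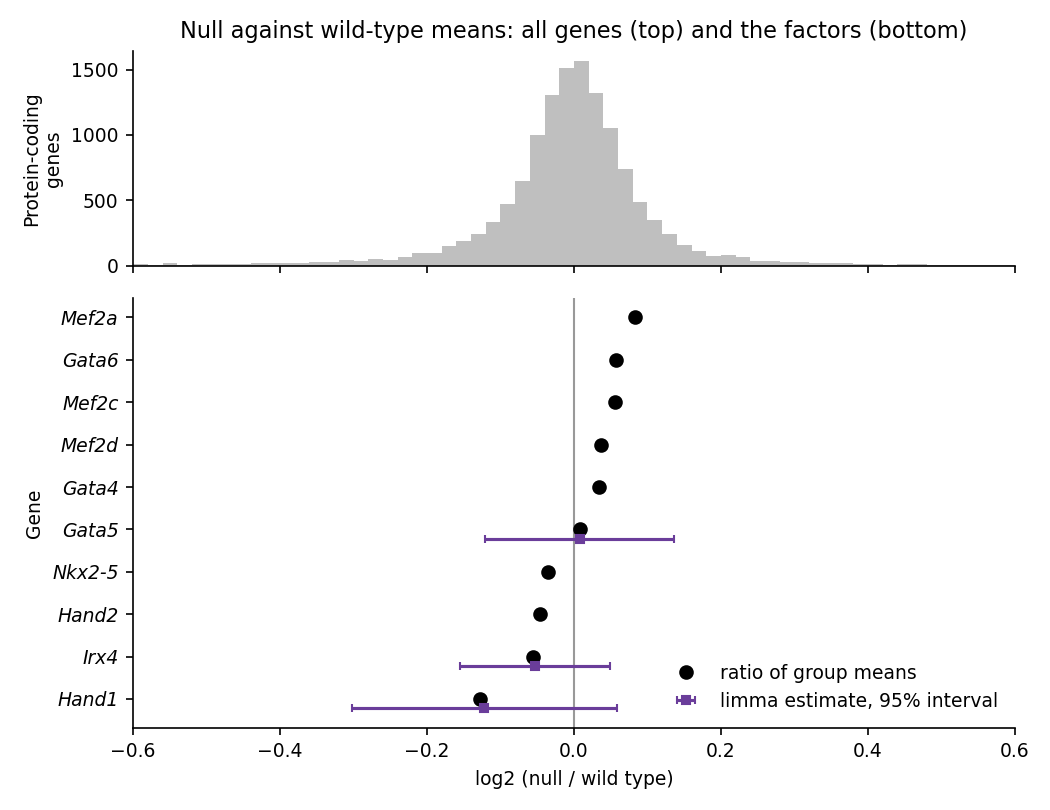
The log2 ratio of null to wild-type group means (horizontal axis) for protein-coding genes with a mean of at least 10 (top, number of genes per bin of 0.02, with 242 of 13299 genes outside the plotted range) and for the 10 factors (bottom, black points), with the limma estimate and 95% interval for the 3 factors with counts per library (purple). Each of the 3 intervals spans 0, and 9 of the factors lie within 0.1 of it.

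*Nkx2-5*, the homeodomain factor that marks heart muscle from its earliest progenitors, had a group mean of 1688 normalized counts in wild-type and 1648 in null hearts, a log2 ratio of -0.03. Its mean is too large for a single set of counts, but the possible sets can be listed. The smallest SD that whole counts allow is 110 in wild type and 161 in null, both larger than the difference of -40.2. Over the 88 pairs of sets with a coefficient of variation within 15% in each group, the exact permutation p (two-sided, over all arrangements of the libraries, smallest possible 0.00794) lay between 0.460 and 0.849. The limit of 15% was set beside protein-coding genes with recovered counts and means of 200 to 500. It took in 97.37% of their coefficients of variation, whose median was 6.715%. These means lie below those of the members it was applied to. Whole counts allow more sets with a wide spread than with a narrow one, so the listed pairs are not equally likely. Ranges and shares over them are no probabilities.

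The 3 GATA factors of the heart had log2 ratios of group means between 0.0079 and 0.06. *Gata4*, a partner of NKX2-5 and TBX5 in activating heart muscle genes, had group means of 3923 in wild type and 4018 in null, and *Gata6*, its relative in outflow tract and smooth muscle, had 2318 and 2412. *Gata6* lies on the plus strand of GRCm38 at chr18:11052064-11085635. The log2 ratios of the 2 genes were 0.03 and 0.06. For *Gata4* the difference of 95 was under the smallest possible SDs of 152 and 174, and the exact p of 85228 possible pairs lay between 0.365 and 0.984. For *Gata6* the difference of 93.8 lay between the smallest possible SDs of 91.2 and 143, with p between 0.238 and 0.794 over 1110 pairs.

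*Gata5*, the GATA factor of endocardium and valves, could be read in each library. It had normalized counts of 428, 365, 416, 437 and 403 in wild-type libraries 1 to 5 and of 366, 427, 428, 402 and 437 in null libraries 1 to 5. The groups covered nearly the same range, each with 1 low library. The means were 409.9 ± 28.0 and 412.1 ± 28.8 (SD, n = 5 each). The limma log2 fold change was 0.0077 with a 95% interval from -0.12 to 0.14 (adjusted p = 0.998), and the exact permutation p was 0.881. This difference has no fixed direction: it turned negative when wild-type library 2 (-0.03) or null library 2, 3 or 5 (-0.0061, -0.0070 and -0.0139) was left out.

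The HAND factors were both lower by their null means. *Hand1*, of the left ventricle and outflow tract, had 370, 304, 378, 310 and 417 in wild-type libraries 1 to 5. In null libraries 1 to 5 it had 310, 332, 372, 322 and 291. Wild-type libraries 1, 3 and 5 and null library 3 were the highest, and the groups overlapped over most of their range. With means of 355.6 ± 48.0 and 325.3 ± 30.3 (SD, n = 5 each), the limma log2 fold change was -0.12 ± 0.0856 (SE; 95% interval from -0.30 to 0.06, adjusted p = 0.998) and the exact permutation p 0.302. The interval leaves room for a fall to 0.811 of the wild-type level or a rise to 1.04 times it. Without wild-type library 3 the log2 fold change was -0.10 (exact permutation p = 0.413). With each of the 10 libraries left out in turn, the log2 fold change of *Hand1* stayed negative. It was largest in size without wild-type library 2 (-0.18) and smallest without wild-type library 5 (-0.06).

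*Hand2*, needed for the right ventricle and the outflow tract, had group means of 1919 in wild type and 1859 in null, a log2 ratio of -0.05. The difference of -59.7 lay in size between the smallest possible SDs of 84.6 in wild type and 44.9 in null, and the exact p of 135 possible pairs ran from 0.198 to 0.778. *Hand2os1*, the gene on the opposite strand across the start shown above, overlaps *Hand2* over 3251 bp, of which 461 bp are exon on both strands. It had 438, 510, 445, 481 and 509 normalized counts in wild-type libraries 1 to 5 and 482, 430, 457, 478 and 466 in null libraries 1 to 5. The null libraries all lay within the wild-type range apart from library 2. Its mean was 24.8% of that of *Hand2* in wild type and 24.9% in null (476.5 ± 34.4 and 462.7 ± 20.7, SD, n = 5 each; exact permutation p = 0.444).

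The MEF2 factors were all higher by their null means. *Mef2a* had the largest upward difference of means among the 10 factors, 2834 in wild type against 3001 in null, 5.89% or a log2 ratio of 0.08. *Mef2d* had 2622 and 2691 and *Mef2c*, the member needed earliest in the heart tube, had 1334 and 1386. The log2 ratios of these 2 were 0.04 and 0.06. *Mef2a* was also the only factor whose possible counts include an exact p under 0.05. This was 1 of 6162 pairs, with an exact p of 0.0397, and the others reached up to 0.619. The pairs are not equally likely, so this share gives no probability for *Mef2a*. Its difference of 167 was above the smallest possible SDs of 96.2 and 118. For *Mef2c* just 12 pairs were possible, with SDs of at least 66.6 and 50.8 around a difference of 52.1 and p between 0.190 and 0.659. For *Mef2d* p lay between 0.278 and 0.897 over 2744 pairs. In none of the listed pairs of the 7 unresolved members did the groups separate, but the many sets with a wide spread favour overlap. Nor did the groups separate for the 3 other members, against 0.787% of the genes tested. Of the 100-base windows of *Mef2a* transcripts, 114 of 15223 also occur in transcripts of other genes, and none do for the other 9 members.

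*Irx4*, which holds ventricular muscle to its identity, had 875, 820, 808, 939 and 943 normalized counts in wild-type libraries 1 to 5 and 819, 840, 835, 815 and 913 in null libraries 1 to 5. Of the null libraries 4 lay close together at the lower end of the wild-type range and null library 5 lay above them. The means were 877.2 ± 63.8 and 844.2 ± 39.6 (SD, n = 5 each), the limma log2 fold change -0.05 ± 0.0490 (SE; 95% interval from -0.16 to 0.05, adjusted p = 0.998) and the exact permutation p 0.325. Without wild-type library 3 the log2 fold change was -0.08 (exact permutation p = 0.167).

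**Figure D2:**
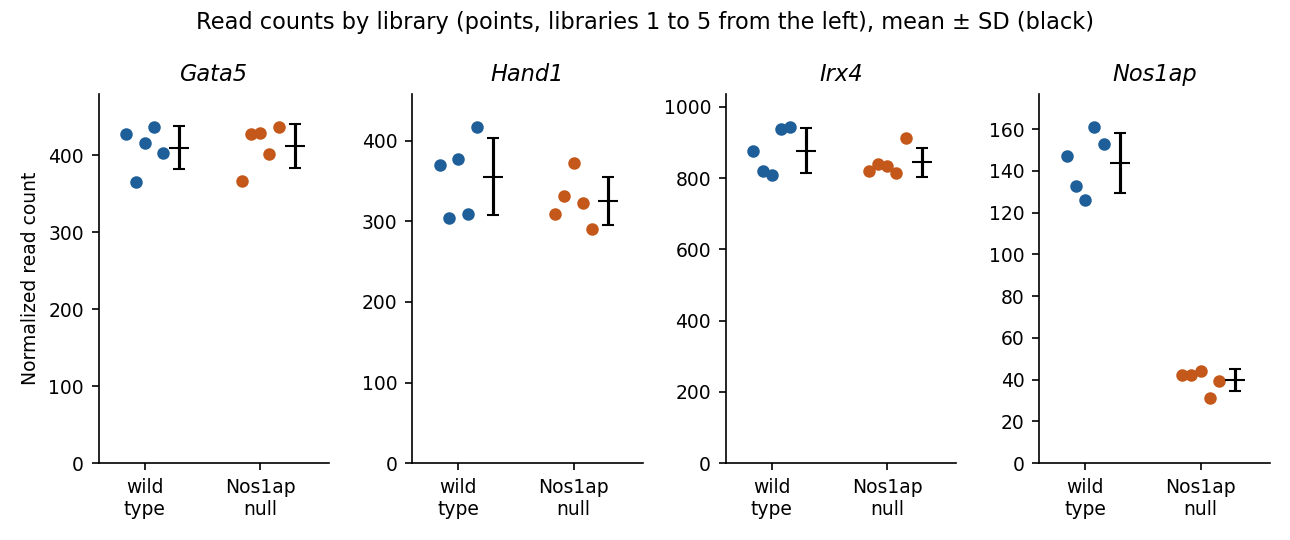
Normalized read counts (vertical axis, from 0) of *Gata5*, *Hand1*, *Irx4* and, for comparison, *Nos1ap* in each library (points, libraries 1 to 5 of each genotype from left to right), with the group mean ± SD in black. The genotypes overlap for the 3 factors, whereas the lowest wild-type value of *Nos1ap* is 126 and the highest null value 44.4.

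Per kb of exon, the levels of the 10 factors covered a wide range and had the same order in both genotypes. *Gata4* (1005 normalized counts per kb in wild type), *Nkx2-5* (982) and *Hand2* (816) stood at the top. *Mef2d* (438), *Gata6* (356) and *Irx4* (336) followed, then *Mef2a* (193), *Hand1* (178), *Gata5* (125) and *Mef2c* (84.9). Some neighbours in this order did not differ beyond their spread in wild type. The gap of 23.0 between *Gata4* and *Nkx2-5* was under the smallest possible SDs per kb (39.0 and 63.7). The wild-type mean of *Gata6* lay within the range of *Irx4* (310 to 362 per kb), and that of *Mef2a* within the range of *Hand1* (152 to 209 per kb). In null hearts the gap of 70.7 between *Gata4* and *Nkx2-5* lay between the smallest possible SDs (44.6 and 93.9). The null mean of *Gata6* (371) lay above the range of *Irx4* (313 to 350), and that of *Mef2a* (204) above the range of *Hand1* (146 to 186). *Gata5*, with a range of 111 to 133 per kb, lay below every wild-type library of *Hand1*. The length used matters most for genes with long or many exons: with the longest coding transcript, *Gata4*, *Nkx2-5* and *Hand2* kept their places, *Mef2a* moved above *Mef2d* (512 against 486 per kb) and *Gata5* came last.

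**Figure D3:**
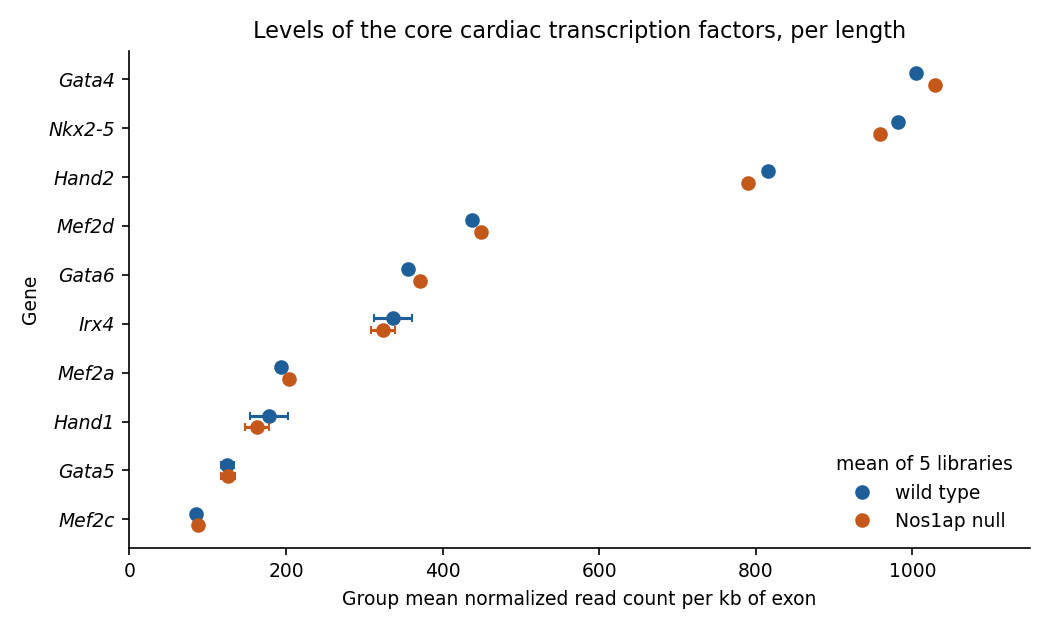
Group means of normalized read counts per kb of exon (horizontal axis, from 0) for the 10 factors in wild-type (blue) and *Nos1ap* null (orange) hearts, each the mean of 5 libraries, with bars of 1 SD for *Gata5*, *Hand1* and *Irx4*, whose counts per library are known. The order of the genes, from *Gata4* at 1005 to *Mef2c* at 84.9 in wild type, was the same in null hearts.

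The makeup of each family differed little between the genotypes. Of the summed level per kb of the 3 heart GATA factors, *Gata4* made up 67.6% in wild type and 67.5% in null, *Gata6* 24.0% and 24.3%, and *Gata5* 8.42% and 8.24%. *Hand2* made up 82.1% and 82.9% of the HAND pair, and *Hand1* 17.9% and 17.1%. Among the MEF2 factors *Mef2d* held 61.2% and 60.6%, *Mef2a* 27.0% and 27.5%, and *Mef2c* 11.9% in both. These shares of group means carry no error and depend on the length used. With the longest coding transcript, *Gata4*, *Gata6* and *Gata5* made up 57.8%, 35.9% and 6.27% in wild type, and among the MEF2 factors the order turned, with 42.3% for *Mef2a*, 40.1% for *Mef2d* and 17.6% for *Mef2c*. On that length too, each null share was close to the wild-type one (57.6%, 36.3%, 6.13%, 43.0%, 39.5% and 17.5% in the same order).

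Other members of the families were looked at next, to place the core factors among their relatives. Of 11 relatives, 8 were tested and none was called. Of these, 2 had an unadjusted limma p under 0.05, *Irx3* and *Gata1*, against 3.53% of all genes tested. All 5 other Iroquois genes were readable in every library. *Irx4* was the highest of them at 336 ± 24.5 per kb in wild type and 324 ± 15.2 in null (SD, n = 5 each), and made up 43.9% and 43.8% of the family's level per kb. *Irx3*, of the ventricular conduction system, came next at 157 ± 6.23 and 143 ± 11.1 per kb. In normalized counts it had 445, 417, 413, 452 and 439 in wild-type libraries 1 to 5 and 375, 363, 402, 395 and 443 in null libraries 1 to 5. Of the null libraries 4 lay below every wild-type library and library 5 lay among them. Its limma log2 fold change was -0.13 ± 0.0580 (SE, n = 5 each; unadjusted p = 0.0328, adjusted p = 0.998). The exact permutation p was 0.0476, against 4.19% of all genes with an exact p under 0.05. It was 0.103 without null library 2. Null library 5 was the only null library among the wild-type ones, so leaving it out ended the overlap. The exact permutation p then had to take its smallest possible value over 126 arrangements (0.00794), and it adds no evidence. *Irx5* and *Irx2* followed with 96.1 and 89.7 per kb in wild type, and *Irx1* (62.7) and *Irx6* (24.4) were lowest. Their limma estimates, 0.03, -0.11, 0.04 and 0.10 in this order, all had an unadjusted p above 0.2.

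**Figure D4:**
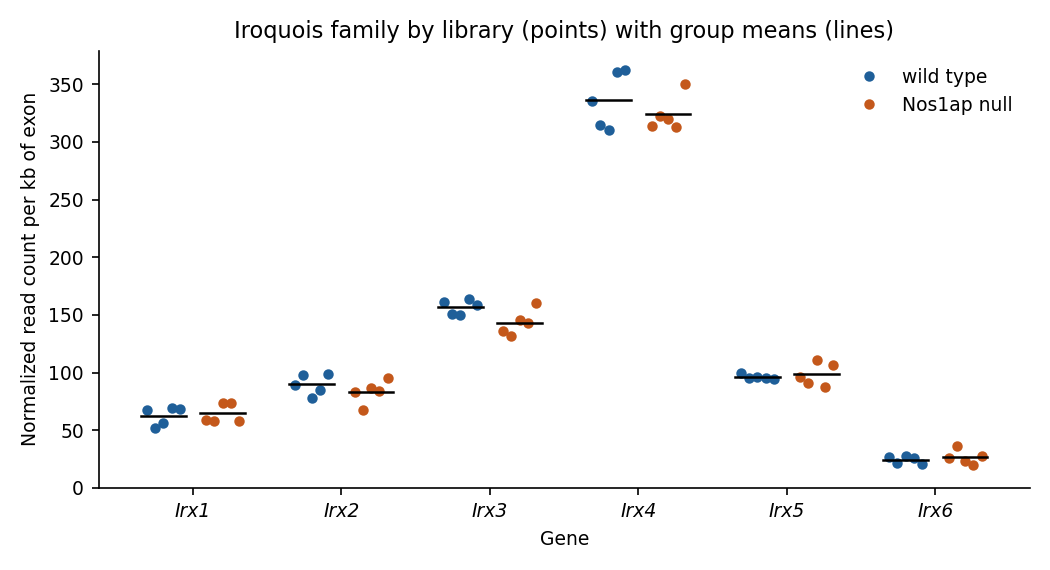
Normalized read counts per kb of exon (vertical axis, from 0) of the 6 Iroquois genes in each wild-type (blue) and *Nos1ap* null (orange) library, with group means as lines. *Irx4* is above every other family member in every library, at 310 to 362 per kb in wild type and 313 to 350 in null hearts.

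Among the GATA relatives, *Gata2*, of endothelial and blood progenitors, had means of 257 ± 7.26 and 264 ± 17.5 (wild type and null), and *Gata3* had 67.7 ± 6.56 and 65.2 ± 17.8 (SD, n = 5 each). *Gata1*, the GATA factor of red blood cells, had 16.5, 9.68, 15.3, 20.6 and 10.3 in wild-type libraries 1 to 5. In null libraries 1 to 5 it had 14.4, 72.4, 18.1, 25.8 and 31.6. The highest value was in null library 2, where *Klf1* was also highest. The limma log2 fold change of *Gata1* was 0.93 ± 0.355 (SE, n = 5 each; unadjusted p = 0.0188, adjusted p = 0.998), the exact permutation p was 0.0556, and without null library 2 the log2 fold change was 0.59 (exact permutation p = 0.0952). All 4 red blood cell markers (*Hbb-bt*, *Hba-a1*, *Alas2* and *Klf1*) were higher by their null means, with a log2 ratio of their sums of 0.39, and their part in the values of *Gata1* was not tested. Of the other relatives, *Nkx2-3*, *Nkx2-6* and *Mef2b* had means under 2 in both genotypes.

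Cofactors that bind the GATA factors and NKX2-5 were higher by the null means in 8 of 9 cases, against 49.5% of protein-coding genes. Their median log2 ratio was 0.05, against -0.00093 for all protein-coding genes. The list is short and was not tested as a set. None of the 2 that could be tested was called, and both had an unadjusted limma p under 0.05, against 3.53% of all genes tested. *Zfpm2*, whose FOG2 protein binds GATA4, had 493, 495, 423, 476 and 500 in wild-type libraries 1 to 5 and 515, 451, 551, 549 and 559 in null libraries 1 to 5. Of the null libraries 4 lay above every wild-type library and library 2 lay among them. The limma log2 fold change was 0.14 ± 0.0626 (SE, n = 5 each; unadjusted p = 0.0425, adjusted p = 0.998) and the exact permutation p 0.0873. Without wild-type library 3 the log2 fold change was 0.09 (exact permutation p = 0.175), and without null library 2 it was 0.19. Null library 2 was the only null library among the wild-type ones, so leaving it out ended the overlap. The exact permutation p then had to take its smallest possible value over 126 arrangements (0.00794), and it adds no evidence. All 5 epicardial markers were higher by their null means, with a log2 ratio of their sums of 0.10, and their part in the values of *Zfpm2* was not tested.

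*Isl1*, a factor of second heart field progenitors and also of autonomic neurons, had 60.9, 53.2, 125, 50.6 and 72.4 in wild-type libraries 1 to 5. In null libraries 1 to 5 it had 45.9, 40.2, 45.4, 55.8 and 40.3. Wild-type library 3 was far above the other 9. The rest of the wild-type libraries lay at the upper end of the null range or above it. Library 3 also stood apart in neuronal, glial and skeletal muscle markers, in the sum of *Sox2*, *Foxa2* and *Cldn6*, and in *Myh11*. The limma log2 fold change was -0.59 ± 0.201 (SE, n = 5 each; unadjusted p = 0.00972, adjusted p = 0.998) and the exact permutation p 0.0238. Without wild-type library 3 the wild-type mean was 59.3 ± 9.79 (SD, n = 4) against a null mean of 45.5 ± 6.37, and the log2 fold change was -0.37 (exact permutation p = 0.0317, limma adjusted p = 0.997). Of the cofactors without a test, *Hipk1*, a kinase of homeodomain proteins, had the largest log2 ratio of means (0.19, from 1263 to 1446), and *Srf*, *Myocd*, *Hopx*, *Ep300*, *Zfpm1* and *Hipk2* had ratios from 0.0089 to 0.06.

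**Figure D5:**
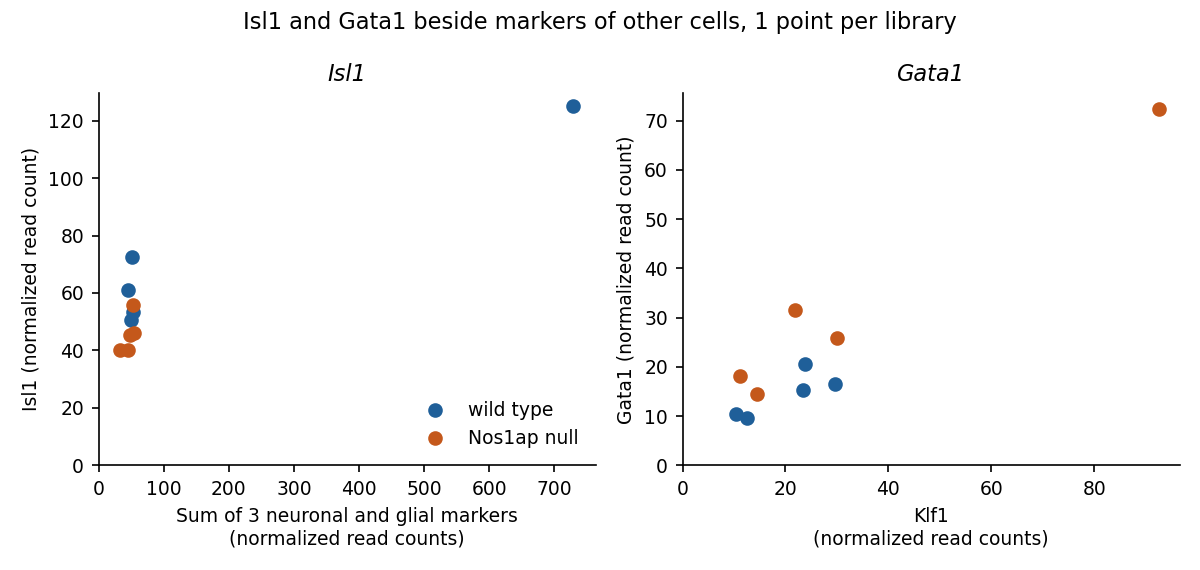
Normalized counts of *Isl1* against the summed normalized count of 3 neuronal and glial markers (left), and of *Gata1* against that of *Klf1* (right), 1 point per library, wild type in blue and *Nos1ap* null in orange. Wild-type library 3 is the point at 729 and 125 on the left, and null library 2 the point at 92.5 and 72.4 on the right.

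Partners and inhibitors of the HAND factors showed no call. All 8 listed genes had means of at least 10, and 3 of 8 were higher by the null means, against 49.5% of protein-coding genes. The E-proteins *Tcf3*, *Tcf4* and *Tcf12* had log2 ratios of 0.02, -0.02 and 0.02. The ID proteins take E-proteins away from their partners, and their genes *Id1*, *Id2*, *Id3* and *Id4* had ratios of 0.03, -0.05, -0.05 and -0.08. *Id1* and *Id4* were the tested ones, with an exact permutation p of 0.476 and 0.524.

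The class IIa deacetylases, which hold MEF2 factors inactive, and the kinases that release or activate them showed no call either. Of 8 genes 5 were tested, and none had an unadjusted limma p under 0.05. *Hdac4* came nearest, with 293, 291, 324, 316 and 321 in wild-type libraries 1 to 5 and 275, 285, 279, 277 and 304 in null libraries 1 to 5. Of the null libraries 4 lay below all wild-type libraries. The limma log2 fold change was -0.12 ± 0.0586 (SE, n = 5 each; unadjusted p = 0.0530, adjusted p = 0.998) and the exact permutation p 0.0317. Leaving out wild-type library 3 gave -0.10 on the log2 scale, with an exact permutation p of 0.0556. Over the 10 libraries left out in turn the estimate ran from -0.14 to -0.10. The unadjusted limma p ran from 0.0288 to 0.121, under 0.05 in 3 of 10 cases, and the adjusted p was at least 0.842. *Hdac9* had 571 ± 51.0 in wild type and 590 ± 34.4 in null (SD, n = 5 each), and *Hdac5* and *Hdac7* had log2 ratios of means of -0.02 and -0.03.

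Of 18 genes known as targets of the core factors in heart muscle, 14 were higher by the null means, against 49.5% of protein-coding genes. Their median log2 ratio was 0.04, and the list was not tested as a set. All 5 heart muscle markers were likewise higher by the null means, with a log2 ratio of their sums of 0.02, and their part in the values of the targets was not tested. Among the targets were *Nppa*, of atrial natriuretic peptide, with group means of 16541 in wild type and 15810 in null (log2 ratio -0.07), *Nppb* with 927 and 983 (0.09) and *Ankrd1*, of a sarcomere-linked repressor, with 9566 and 10242 (0.10). The myosin heavy chain gene *Myh6* had 61175 and 64570 (0.08) and *Actc1*, of cardiac actin, 98611 and 101186 (0.04). *Slc8a1*, of the sodium-calcium exchanger, had 2490 and 2735 (0.14). Only 2 of the 18 could be tested, and neither was called. *Srpk3*, a MEF2 target kinase, had 567 ± 33.3 and 578 ± 34.7 (SD, n = 5 each; exact permutation p = 0.603). *Xirp2*, another MEF2 target, had 33.9, 22.3, 14.3, 28.9 and 16.6 in wild-type libraries 1 to 5 and between 26.1 and 29.4 in the null libraries (exact permutation p = 0.317).

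Genes within 10 kb of the core factors were looked at last. Of 11 such genes with values the genotypes overlapped for all 11, as they did for all but 0.787% of the protein-coding genes tested. Of the 11, 5 are described, *Hand2os1* among these, chosen after their values were seen. The other 6 had exact permutation p-values from 0.484 to 0.865. The start of *1010001N08Rik* lies 503 bp from that of *Gata6*, on the opposite strand, and its wild-type and null means were 103 ± 14.8 and 100.4 ± 10.6 (SD, n = 5 each). *Gata5os*, across the *Gata5* start shown above, had 10.4, 13.6, 7.13, 5.16 and 6.21 in wild-type libraries 1 to 5 and 12.6, 12.1, 6.05, 12.9 and 15.2 in null libraries 1 to 5. These are low counts that overlapped between the genotypes (exact permutation p = 0.175). Of the genes downstream of *Hand2*, *5033428I22Rik* had 435 ± 37.0 and 426 ± 47.7 (SD, n = 5 each). *Gm34030* had 108, 99.7, 81.4, 111 and 95.2 in wild-type libraries 1 to 5 and 76.5, 102, 85.7, 75.2 and 71.9 in null libraries 1 to 5. Of the null libraries 3 lay below all wild-type libraries, and the exact permutation p was 0.0714 (adjusted limma p over genes of every type = 0.998).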

How the data were processed

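Hearts of 5 wild-type and 5 *Nos1ap* null male embryos (day 13.5) were analysed by polyA RNA-seq, with genotypes of the samples taken from their labels. The columns of group means were assigned to the genotypes with the help of *Nos1ap*. Per the submitters' processing notes and the methods, the authors checked reads with FastQC 0.11.5, trimmed them with Trimmomatic 0.36, aligned them with STAR within RSEM 1.2.31 to GENCODE M10 on GRCm38 using strand, and normalized and compared gene counts with DESeq 1.24.0. The signal values the authors deposited are group means of normalized counts, and the table's own fold changes, log2 fold changes, p-values and adjusted p-values were not used.

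Each mean is a sum of whole counts divided by size factors, so counts per library were solved from the printed digits. The set was taken where only 1 exists (means under 200) or at most 0.01 others were expected as near by chance (means under 1000). This gave counts for 98.822% of wild-type and 99.05% of null means under 1000. The search and the test were checked on simulated data. Libraries are numbered 1 to 5 by falling size factor, which are not the label's replicate numbers.

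limma 3.58.1 in R 4.3.3 (trend and robust) was fitted to log2(normalized count + 1), so fold changes of low genes are understated, over the 10295 protein-coding genes whose mean reached 10 and whose counts were recovered, with p-values adjusted over all of them by the Benjamini-Hochberg procedure. Single members were also compared by a two-sided exact permutation test of the mean normalized count. Levels per kb use the exon length of GENCODE M21. Named genes are all members, genes of the pathway lists (relatives, cofactors, partners, regulators) that were called or had an unadjusted p under 0.05, textbook targets, and *Nos1ap*, with markers of cell types taken by list. The other genes of these lists, single markers and genes near members were named after their values were seen. Members and lists were chosen with earlier results of these data known, and some markers of other cell types are not reported here. Symbols were matched by Ensembl gene ID, under which *Hand2os1* is *AV026068* and *Gm34030* is *RP24-459A4.8* in the table.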

Additional observations from a re-analysis of the deposited data

Results flagged for a closer look

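*Irx4* in the null hearts had 1 library far from the others. Null library 5 had 913 normalized counts and the other 4 had between 815 and 840, so that the gap to the nearest was 0.748 of the group's whole range (Dixon's critical value for 5 samples 0.71). Without it the null mean was 827 ± 11.9 (SD, n = 4). It was the only such library among 28 groups of 5 checked (14 genes), and chance gives about 1 in 20 groups. The check did not take in every gene named here, and some of the rest also pass this limit. Examples are *Irx5* in wild type (312 in library 1, 295 to 299 in the others) and *Klf1* in null (92.5 in library 2, 11.1 to 30.1 in the others). *Myh11* in wild type is another (206 in library 3, 32.9 to 69.1 in the others).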

How the results depend on the processing

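The number of called members, 0 of 3 tested, was the same with another pseudocount, no or a lower filter on the mean, voom, centring on the median, genes of every type, an FDR of 5% with no fold threshold, and each library left out. Under the stricter acceptance of counts (at most 0.0001 other sets expected) none of the 3 members had counts, so that it says nothing of them. The log2 fold change of *Hand1* stayed negative, from -0.18 to -0.06 (adjusted p from 0.876 to 1.00), and that of *Irx4* from -0.08 to -0.03 (adjusted p from 0.907 to 1.00). That of *Gata5* ran from -0.0333 to 0.0494. It was negative without wild-type library 2 (-0.0333) and null library 2 (-0.0061), 3 (-0.0070) or 5 (-0.0139). With the longest coding transcript in place of all exons, 3 of 10 members kept their rank by level per kb. Centring moved the ratios by 0.00147. Without null library 2 the unadjusted limma p of *Irx3* was 0.0903, and over the libraries left out in turn it ran from 0.00611 to that value. That of *Zfpm2* ran from 0.00267 to 0.141 and that of *Gata1* from 0.00347 to 0.0527. That of *Isl1* ran from 0.00346 to 0.0279 and stayed under 0.05 throughout. The lowest values of *Irx3* and *Zfpm2* came without the null library that lay among the wild-type ones. The unadjusted limma p of *Hdac4* ran from 0.0288 to 0.121, under 0.05 in 3 of 10 cases. That of *Hand1* ran from 0.0491 to 0.452, under 0.05 only without wild-type library 2. That of *Irx4* ran from 0.108 to 0.606 and that of *Gata5* from 0.430 to 0.967.

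No paired analysis was possible because the recovered libraries carry no replicate numbers. Means above 1000, those of 7 members, allow several sets of counts and so no test. At this depth the 95% intervals of the fold change ran from 0.920 to 1.10 for *Gata5*, from 0.811 to 1.04 for *Hand1* and from 0.898 to 1.03 for *Irx4*. Fold changes within them are not excluded at that level, and no detection limit was worked out.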
